A study of Homo sapiens with 14 samples.

Results

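The squamous differentiation and cornified envelope genes described here are 39 genes chosen by name, from involucrin and the SPRR and LCE families to the protease inhibitors and lipid enzymes of the epithelial barrier. All 39 were found in the table, and 27 reached at least 1 FPKM (fragments per kilobase of gene length, scaled to the size of the library) in at least 2 of the 14 libraries, the level required for a test. The same requirement left 13137 named loci in all. RNA came from MCF-10A, a human breast epithelial cell line that is immortal but does not form tumours, harvested on day 2 after retroviral infection, and the series asked how MRTFB, a coactivator of the transcription factor SRF, acts on targets of YAP, a coactivator of the TEAD factors. There were 7 groups of 2 libraries. The 2 control groups carried an empty pMSCV vector, the Hygro vector or the Puro vector. The YAP 5SA group expressed a hyperactive form of YAP. The other 4 groups expressed MRTFB that cannot bind G-actin: MRTF dN WT has no further change, MRTF dN dPY cannot bind YAP, MRTF dN Y305A cannot bind SRF, and MRTF dN Y305A/dPY binds neither. Every group was infected with a retrovirus and the constructs were overexpressed on top of the cells' own genes. The labels do not say which vector belongs to which construct, so each construct was set against both, nor do they say whether replicates are separate cultures, so p-values measure the spread between libraries, which may be technical.

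In stratified squamous epithelium, cells that leave the basal layer replace their plasma membrane by a cornified envelope. Transglutaminases cross-link involucrin, the small proline-rich proteins (SPRR) and the late cornified envelope proteins (LCE) onto a scaffold of the plakins periplakin and envoplakin. Lipid transporters and lipoxygenases supply the lipids of the barrier, and secreted inhibitors such as elafin and SLPI restrain proteases. Many of the envelope genes lie side by side in the epidermal differentiation complex of chromosome 1. Simple breast epithelium does not form such an envelope, but breast epithelial cells in culture can switch on part of the programme.

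The introduced genes matched the labels. The YAP 5SA libraries held YAP1 at 625 and 529 FPKM, where the 2 vectors had between 19.2 and 32.4. MKL2, the table's symbol for MRTFB, ranged from 165 to 610.1 FPKM in the 8 MRTF libraries and from 3.06 to 6.60 in the other 6. FPKM carry no counts, so the depth of each library is unknown. Of the 10 basal epithelial markers each group had all at 1 FPKM or more, with sums of 2465 to 48460 FPKM. The 12 luminal mammary markers had 4 to 6 at 1 FPKM or more in a group and sums of 205.1 to 29390 FPKM, with KRT8 and KRT18 carrying the highest sums, while ELF5, PGR and CSN2 stayed at or below 0.0821 FPKM. Of the 7 leukocyte markers PTPRC and CD3E reached at most 0.0472 FPKM and CD14 up to 149, and 2 or 3 were at 1 FPKM or more in a group. CD68 is read from a locus that also carries EIF4A1, SENP3 and other genes, so its level is not that of CD68 alone. Of the 7 fibroblast markers COL1A2, PDGFRA, PDGFRB and LUM reached at most 0.163 FPKM, while DCN reached 13.7, COL3A1 3.76 and COL1A1 3.12, and the list summed to 0.8283 to 16.54. Some single libraries touch the results. Puro vector replicate 1 had 4780 unnamed loci at 1 FPKM or more against 211 to 669 elsewhere, and MRTF dN dPY replicate 1 has no values after PPIA on chromosome 7 or, with 1 exception among 381 expressed loci of chromosome 8, on chromosomes 8, 9 and X. LCN2 is the only measured member in that empty stretch, so its MRTF dN dPY level rests on replicate 2. In these bulk libraries fewer cells of a type and less RNA per cell cannot be told apart.

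The 12 members that could not be tested are mostly those of the outermost epidermis. FLG and LOR, which encode filaggrin and loricrin, RPTN, CRNN, TGM3, DSG1, CALML3, LCE3A and LCE3E stayed below 1 FPKM in every library, with filaggrin at most 0.479 and loricrin at most 0.335. SERPINB4 (1.16 FPKM), RHCG (2.18) and TMPRSS11E (1.64) passed 1 FPKM in 1 library each. Of the 27 measured members, 10 stood at 1 FPKM or more in all 14 libraries: IVL, TGM1, PPL, EVPL, PI3, SLPI, CSTA, ALOX15B, ABCA12 and SCEL. Another 8 passed with only 2 to 4 libraries at 1 FPKM or more: SPRR1A, SPRR2E, SPRR3, LCE3D, SERPINB3, CALML5, ALOX12B and KRTDAP. CALML5 passed only through the Hygro vector libraries and LCE3D and ALOX12B only through libraries of the Y305A forms, so their direction against those groups was set by the filter. CRCT1 passed only through the Y305A forms and Hygro vector replicate 2. The filter thus favoured its rise in the Y305A forms against all groups but the Hygro vector. SPRR1A, SPRR3 and KRTDAP passed only through vector libraries, and SERPINB3 and SERPINB13 only through these and YAP 5SA. For these genes the filter favoured a fall in the MRTF forms against the vectors, and for SERPINB3 and SERPINB13 also against YAP 5SA. Of the 15 members on chromosome 1, 9 were measured. SPRR2, LCE3 and SERPINB3/SERPINB4 are near-identical copies between which reads can be split, so their single values are uncertain. TGM1 is read from a locus that also carries DHRS1 and RABGGTA, and ALOX12B from a locus shared with ALOXE3.

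The sequences just before the start sites are shown for 6 members that are called in comparisons that follow and carry a match to the AP-1 letters near the start. These 6 do not all move the same way. They are the 130 bases before the RefSeq start on GRCh38.p14, all on the plus strand, written 5′ to 3′: chr1:152908416-152908545 for IVL, chr1:152983951-152984080 for SPRR1A, chr1:153031073-153031202 for SPRR1B, chr9:128149323-128149452 for LCN2, chr13:77535576-77535705 for SCEL and chr18:63587213-63587342 for SERPINB13. Capitals mark the AP-1 letters TGANTCA and the TEAD letters GGAATG, which read CATTCC on the other strand.
IVL: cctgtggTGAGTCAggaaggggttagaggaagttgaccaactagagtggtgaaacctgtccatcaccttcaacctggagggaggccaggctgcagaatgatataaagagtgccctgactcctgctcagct
SPRR1A: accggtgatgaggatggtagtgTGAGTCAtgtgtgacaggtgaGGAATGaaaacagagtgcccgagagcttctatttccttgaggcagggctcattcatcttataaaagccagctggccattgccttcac
SPRR1B: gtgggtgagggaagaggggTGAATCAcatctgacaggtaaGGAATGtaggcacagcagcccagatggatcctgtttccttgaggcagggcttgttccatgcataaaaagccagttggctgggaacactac
LCN2: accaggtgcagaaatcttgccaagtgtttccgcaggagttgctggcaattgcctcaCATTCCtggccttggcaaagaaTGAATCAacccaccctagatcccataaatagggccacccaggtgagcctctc
SCEL: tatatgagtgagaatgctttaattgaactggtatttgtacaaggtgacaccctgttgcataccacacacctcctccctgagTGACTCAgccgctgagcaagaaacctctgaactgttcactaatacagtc
SERPINB13: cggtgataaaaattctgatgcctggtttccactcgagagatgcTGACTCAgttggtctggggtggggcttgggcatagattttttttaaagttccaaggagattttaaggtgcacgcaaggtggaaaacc

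The set of RefSeq promoter sequences used here held 250 bases before the start for 17 of the 27 measured members, and both strands were searched. SPRR2D, SPRR2E, TGM1, CRCT1, PPL, EVPL, PI3, SLPI, CSTA and ALOX15B were not in it, so the counts do not cover them. The AP-1 letters occurred in 10 of the 17 (IVL, SPRR1A, SPRR1B, SPRR2A, SPRR3, SBSN, KRTDAP, LCN2, SCEL and SERPINB13), against 6.6% of all 27305 promoters of that length. The TEAD letters occurred in 6 of the 17 against 11.9% of all promoters. In SPRR1A and SPRR1B an AP-1 match and a TEAD match were separated by the same 14 bases, at positions -108 to -102 and -87 to -82 in SPRR1A and -111 to -105 and -90 to -85 in SPRR1B. In LCN2 they were 16 bases apart, and a second TEAD match at -175 to -170 overlaps a match to the NF-kB motif. That motif occurred in 3 of the 17 against 9.57% of all promoters. The GRHL letters AACCGGTT (0.106% of all promoters) and the CArG box, the motif known for SRF (1.14%), had no match in the 17 windows. These matches are a description of letters in a short window.

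The empty vectors were compared first, since every construct is read against them. Of the 27 measured members 20 had their highest value in a Hygro vector library, 16 of them in replicate 2. The share of all loci with their highest value there was not computed, so this count is a description only. Involucrin (IVL), the first scaffold protein of the envelope, stood at 43.1 and 47.7 FPKM in the Hygro vector and at 2.43 and 1.13 in the Puro vector. It was 17.2-fold lower in the Puro vector on FPKM + 1 (log2 difference -4.10 ± 0.47 SE, limma adjusted p = 0.00275). TGM1, the keratinocyte transglutaminase, stood at 134 and 138 FPKM against 67.0 and 46.4. SLPI, the secretory leukocyte protease inhibitor and the most abundant member, stood at 7304 and 5068 against 1824 and 1178. None of these 3 pairs of groups overlapped. In all 7 of the 27 members fell in the Puro vector and none rose, where 8.52% of the 13137 loci tested fell and 5.67% rose (14.2% in all): IVL, TGM1 (-1.27 ± 0.27, adjusted p = 0.0169), the plakins PPL (-1.82 ± 0.43, 0.024) and EVPL (-1.79 ± 0.40, 0.0205), SLPI (-2.05 ± 0.55, 0.0342), the cystatin CSTA (-1.61 ± 0.43, 0.0347) and CALML5, a calmodulin-like protein of differentiating keratinocytes (-1.69 ± 0.32, 0.0127), whose direction here was set by the filter on low values. The members' median difference was -1.61, against -0.0673 over all loci. SPRR1B, a cross-linked precursor, differed by -1.64 ± 1.23 (adjusted p = 0.377), LCN2 by -2.95 ± 1.12 (0.103), SERPINB3 by 0.22 ± 0.29 (0.627) and SCEL by -2.22 ± 0.77 (0.0778), none past the threshold of 0.05. SPRR3 overlapped between the vectors (1.91 and 12.5 FPKM against 7.40 and 0.175, adjusted p = 0.407). IVL was called without any 1 of the 4 libraries. SLPI and CSTA were not called with any 1 of them left out. PPL and EVPL lost their calls without Hygro vector replicate 1 (-1.16, adjusted p = 0.0876, and -1.51, 0.0726) or Puro vector replicate 1 (-1.85, 0.0729, and -1.77, 0.068), and EVPL (-2.07, 0.0511) and TGM1 (-1.25, 0.0673) without Hygro vector replicate 2. With the replicate number as a block within the MRTF groups, SCEL (adjusted p = 0.0213) and MALL (-1.68 ± 0.36, 0.0116) were also lower in the Puro vector.

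**Figure D1:**
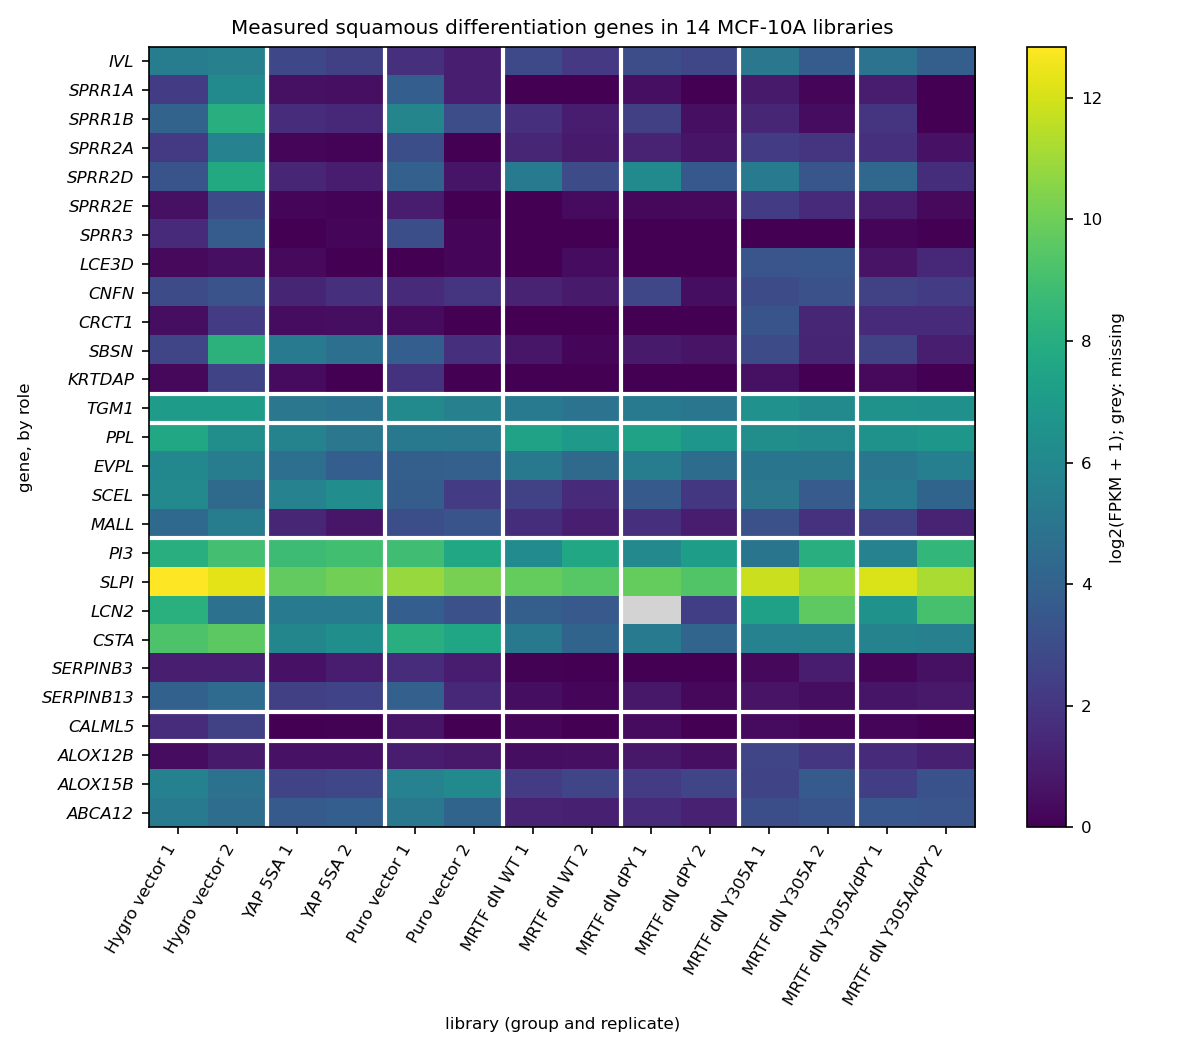
Levels of the 27 measured members as log2(FPKM + 1), by colour, with libraries along the horizontal axis and genes by role along the vertical axis (from the top: envelope proteins, transglutaminase, plakins and membrane proteins, inhibitors and antimicrobial proteins, CALML5, lipid enzymes). The Hygro vector libraries hold the highest value of 20 members (share over all loci not computed), and the grey cell is the missing LCN2 value.

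The libraries within a group also differed in these genes, and the median difference was larger for members than for all loci in each group. In the Hygro vector 13 of 27 members differed by 2-fold or more between the 2 libraries (48.1%, against 10.6% of all loci). All 6 SPRR genes were higher in replicate 2: SPRR1B stood at 16.2 and 260.2 FPKM, SPRR1A at 3.89 and 66.6, SPRR2D at 9.26 and 218, SPRR2A at 3.54 and 50.1, and SPRR3 at 1.91 and 12.5. SBSN, suprabasin, stood at 5.48 and 308 in the same libraries. PPL (199.6 and 79.3), SCEL (65.4 and 20.7) and LCN2 (282 and 26.5) were higher in replicate 1, so the libraries did not differ by a common factor. In the Puro vector 11 members differed by 2-fold or more, all higher in replicate 1, the library that stands apart: SPRR1B stood at 55.6 and 7.17 FPKM and SPRR3 at 7.40 and 0.175. YAP 5SA had no member with a 2-fold difference. The median difference between its libraries was 0.226 on the log2 scale for members and 0.213 for all loci. In both Y305A groups IVL, SCEL, SBSN and MALL were higher in replicate 1 while PI3 and LCN2 were higher in replicate 2, with PI3 at 31.2 and 273 FPKM in MRTF dN Y305A and at 50.0 and 363 in MRTF dN Y305A/dPY.

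**Figure D2:**
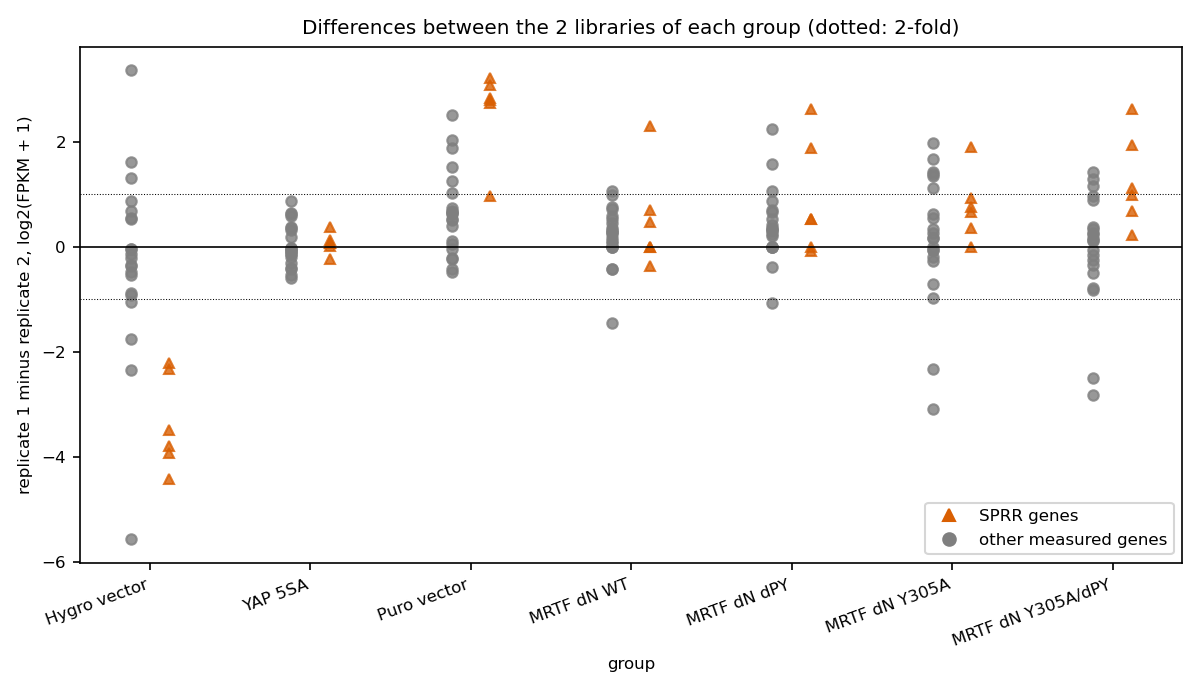
Difference between replicate 1 and replicate 2 of each group in log2(FPKM + 1), for the 6 SPRR genes (triangles) and the other measured members (circles). SPRR genes lie below -1 in the Hygro vector, where replicate 2 is higher, and above 0 in the Puro vector, and all points of YAP 5SA lie between the dotted lines of a 2-fold difference.

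YAP 5SA was compared with each vector to ask which of these genes hyperactive YAP changes. Against the Hygro vector 9 of the 27 members fell and none rose, where 4.3% of loci tested fell and 3.91% rose (8.21% in all). The median was -1.61 for the members and -0.0124 over all loci. Among the envelope proteins IVL stood at 5.86 and 4.30 FPKM and fell 7.68-fold (-2.94 ± 0.47, limma adjusted p = 0.00532), and SPRR1B, at 2.08 and 1.84, fell by 4.50 ± 1.23 on the log2 scale (0.0484). IVL was not called without YAP 5SA replicate 2 (-2.75, adjusted p = 0.0694). SPRR1B was called only without Hygro vector replicate 1, and without replicate 2 of that vector its difference was -2.54 (0.274). SPRR3 was at 0 and 0.170 FPKM (-2.54 ± 0.80, adjusted p = 0.0784). TGM1 fell to 33.2 and 28.9 FPKM (-2.10 ± 0.27, 0.00167), a call that held without any 1 of the 4 libraries. Of the plakin and membrane members, PPL stood at 52.9 and 33.3 (-1.56 ± 0.43, 0.0498) and MALL, a raft protein of the MAL family, at 1.61 and 0.685 against 19.7 and 41.6 (-3.82 ± 0.55, 0.00328). MALL held without any 1 library. PPL was no longer called without Hygro vector replicate 1 (-0.90, adjusted p = 0.227) or either YAP 5SA library. EVPL at 24.9 and 13.2 FPKM missed the threshold (-1.45 ± 0.40, 0.0501) and passed with the block within the MRTF groups (0.0387), as did ABCA12 (-1.20 ± 0.34, 0.0468). SCEL, sciellin, did not differ detectably (50.5 and 76.4 FPKM, 0.73 ± 0.77, adjusted p = 0.639).

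Among inhibitors SLPI fell to 872 and 1084 FPKM (-2.64 ± 0.55, adjusted p = 0.0162), a call lost without Hygro vector replicate 1 (0.0684) or either YAP 5SA library. CSTA, cystatin A, which is itself cross-linked into the envelope, was at 57.5 and 84.3 FPKM where the Hygro vector had 606 and 781, a 9.76-fold fall (-3.29 ± 0.43, 0.00194) that was called without any 1 library. CALML5 was at 0 and 0.0588 FPKM against 2.09 and 4.66 (adjusted p = 0.00495), again the group through which it passed the filter. ALOX15B, a lipoxygenase of differentiating epithelium, stood at 5.26 and 5.63 against 49.0 and 26.2 (-2.52 ± 0.41, 0.00605). The ALOX15B call was lost without either YAP 5SA library (0.0537 and 0.062), and that of CALML5 without YAP 5SA replicate 2 (0.054). LCN2 at 36.8 and 37.5 FPKM (-1.21 ± 1.12, 0.584) and SERPINB3 at 0.541 and 1.04 (-0.25 ± 0.29, 0.679) were not called. The groups of the called members did not overlap, but neither did those of several members that were not called. In all 19 of the 27 members were lower without overlap, and the share over all loci was not computed.

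Against the Puro vector the same YAP 5SA libraries gave 3 members lower and 1 higher, where 4.22% of loci tested fell and 5.56% rose (9.78% in all). CSTA (-1.68 ± 0.43, limma adjusted p = 0.0367), ALOX15B (-3.23 ± 0.41, 0.00124) and MALL (-2.14 ± 0.55, 0.0375) fell, and SCEL rose 7.77-fold from 12.8 and 3.79 FPKM (2.96 ± 0.77, 0.04). ALOX15B stood at 50.3 and 70.6 FPKM in the Puro vector, and its call held without any 1 library. Without Puro vector replicate 1 CSTA (-1.43, adjusted p = 0.132) and MALL (-2.26, 0.0863) were no longer called. CSTA was not called without either YAP 5SA library, nor MALL with any 1 of the 4 libraries left out. SCEL was called without Puro vector replicate 1 but not with any of the other 3 libraries left out (adjusted p from 0.138 to 0.23). IVL turned to a positive value that was not called (1.16 ± 0.47, adjusted p = 0.143), and with the replicate number as a block within the MRTF groups it passed (0.0288), as did TGM1 (0.0313). SPRR1B (-2.86 ± 1.23, 0.161), SPRR3 (-1.54 ± 0.80, 0.243), TGM1 (-0.83 ± 0.27, 0.0751), PPL (0.26 ± 0.43, 0.735), EVPL (0.34 ± 0.40, 0.62), SLPI (-0.59 ± 0.55, 0.514), LCN2 (1.74 ± 1.12, 0.346) and SERPINB3 (-0.47 ± 0.29, 0.323) were not called. The members' median was -0.332, against 0.0311 over all loci.

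**Figure D3:**
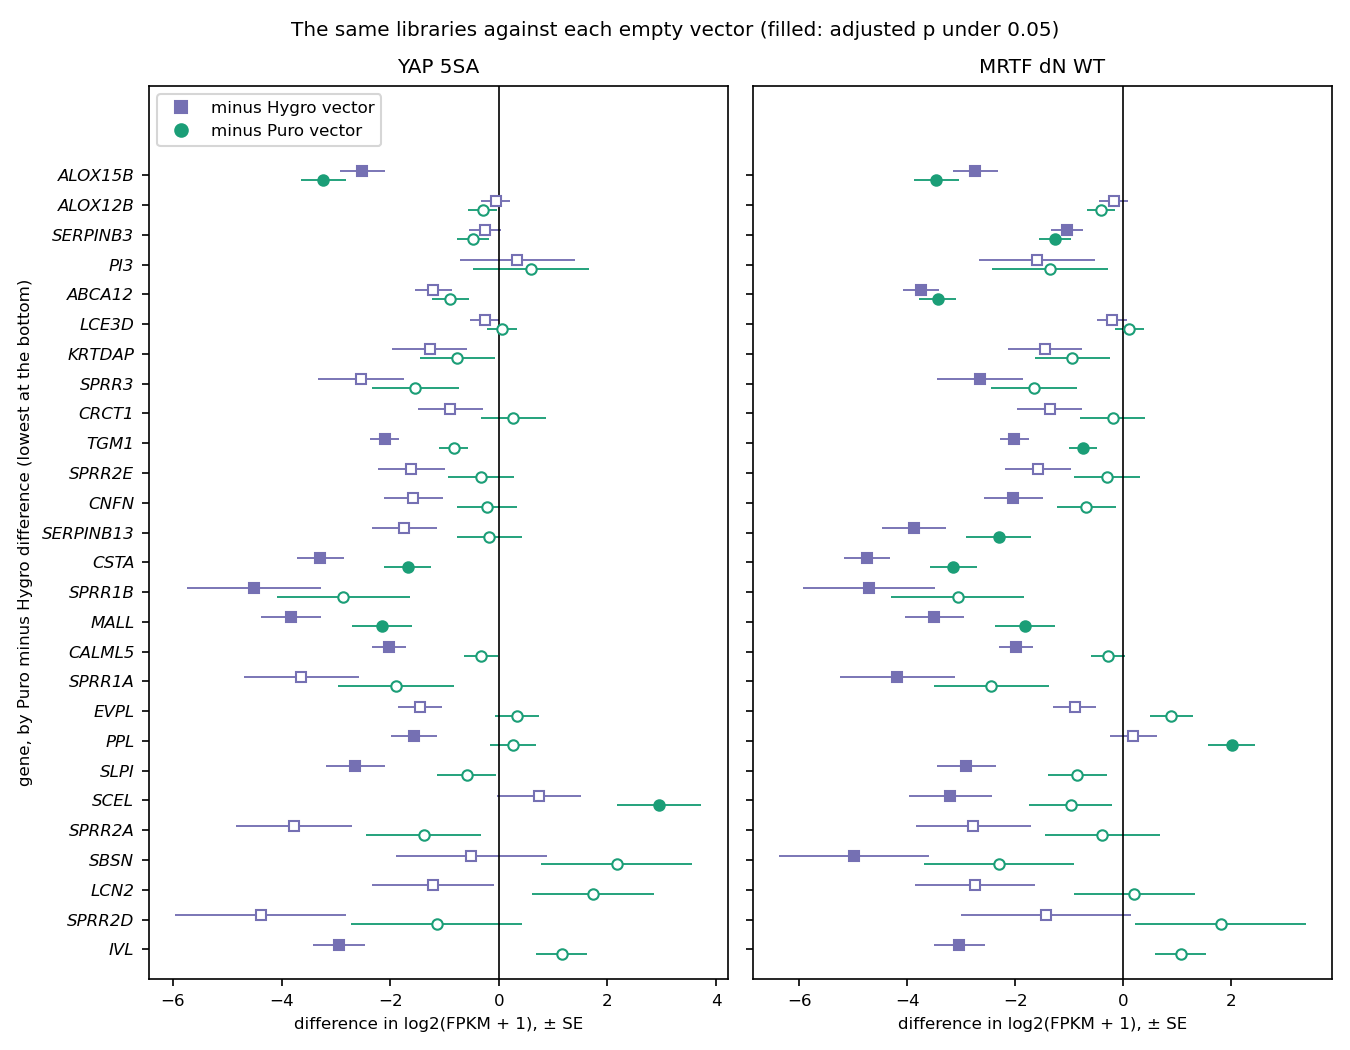
Differences in log2(FPKM + 1) with their SE for YAP 5SA (left) and MRTF dN WT (right) against the Hygro vector (squares) and the Puro vector (circles), genes ordered by the difference between the vectors. IVL at the bottom lies at -2.94 and 1.16 for the same YAP 5SA libraries, while ALOX15B at the top lies at -2.52 and -3.23.

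MRTF dN WT was compared with each vector to ask what MRTFB freed from G-actin does to these genes when it can bind SRF and YAP. Against the Hygro vector 16 of 27 members fell and none rose, where 7.09% of loci tested fell and 12% rose (19.1% in all). The 16 include CALML5, SPRR1A, SPRR3, SERPINB3 and SERPINB13, whose fall was set or favoured by the filter on low values. The median was -2.65, against -0.0172 over all loci. Of 12 measured envelope proteins 6 fell. IVL stood at 6.22 and 3.40 FPKM (-3.04 ± 0.47, limma adjusted p = 0.00113), SPRR1B at 2.27 and 1.02 (-4.71 ± 1.23, 0.0214), CNFN, cornifelin, at 1.35 and 0.883 against 6.69 and 8.72 (-2.04 ± 0.55, 0.0243), and SBSN at 0.707 and 0.180 (-4.98 ± 1.39, 0.0288). SPRR1A and SPRR3 are listed at 0 in both MRTF dN WT libraries (adjusted p = 0.0189 and 0.0401). SPRR1A, SPRR1B, SPRR3, SBSN and CNFN lost their calls without Hygro vector replicate 2 or either MRTF dN WT library. CNFN also lost its call without Hygro vector replicate 1. Without the Hygro vector library SPRR1B was at -2.75 (adjusted p = 0.155) and SBSN at -2.19 (0.145). IVL kept its call without any 1 library.

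Outside the envelope proteins, TGM1 stood at 37.4 and 28.9 FPKM (-2.02 ± 0.27, adjusted p = 0.000366), SLPI at 895 and 734 (-2.91 ± 0.55, 0.00364), CALML5 at 0.124 and 0 (0.00135) and MALL at 2.23 and 1.14 (-3.50 ± 0.55, 0.00124). SCEL fell to 4.82 and 1.93 (-3.20 ± 0.77, 0.0149) and SERPINB3 to 0.0518 and 0 (-1.04 ± 0.29, 0.0303). SERPINB3 was not called with any 1 of the 4 libraries left out, and SCEL was not called without Hygro vector replicate 1 (-2.39, adjusted p = 0.112) or MRTF dN WT replicate 2 (-2.70, 0.111). TGM1, SLPI and MALL were called without any 1 library, as were CSTA, SERPINB13, ABCA12 and ALOX15B. CSTA stood at 36.0 and 16.7 FPKM, 26.9-fold below the Hygro vector (-4.75 ± 0.43, 2.53e-05). SERPINB13, a serpin of squamous epithelium, stood at 0.403 and 0.188 against 14.8 and 21.8 (-3.88 ± 0.60, 0.00104). ABCA12, the lipid transporter of lamellar granules, stood at 1.38 and 1.20 against 37.8 and 23.2 (-3.75 ± 0.34, 2.53e-05), and ALOX15B at 3.74 and 5.40 (-2.74 ± 0.41, 0.000937). PPL was the exception: at 169 and 122 FPKM it lay within the range of the Hygro vector (0.19 ± 0.43, adjusted p = 0.819). EVPL (35.5 and 20.5 FPKM, -0.90 ± 0.40, 0.151) and LCN2 (13.5 and 10.9, -2.75 ± 1.12, 0.122) were not called.

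Against the Puro vector 7 of 27 members fell and 1 rose, where 15% of loci tested fell and 21.8% rose, so the share of members called (29.6%) was below that of all loci (36.7%). ABCA12 (-3.44 ± 0.34, limma adjusted p = 4.56e-05), ALOX15B (-3.46 ± 0.41, 0.000182), CSTA (-3.14 ± 0.43, 0.000425), SERPINB13 (-2.31 ± 0.60, 0.0128), SERPINB3 (-1.26 ± 0.29, 0.00773), MALL (-1.81 ± 0.55, 0.0258) and TGM1 (-0.75 ± 0.27, 0.0482) fell. Without Puro vector replicate 1 TGM1 (-0.48, adjusted p = 0.231), SERPINB3 (-0.93, 0.0532) and MALL (-1.93, 0.075) were not called, and SERPINB13 was -1.06 (0.0316). ABCA12, ALOX15B and CSTA were called without any 1 library. The falls of SERPINB3 and SERPINB13 were favoured by the filter. Leaving out an MRTF dN WT library also ended the calls of TGM1, MALL and SERPINB13, and leaving out Puro vector replicate 2 that of MALL. PPL rose 4.02-fold from 35.7 and 34.2 FPKM (2.01 ± 0.43, 0.00532). It was not called without MRTF dN WT replicate 1 (adjusted p = 0.0535). IVL (1.06 ± 0.47, 0.1), SPRR1B (-3.06 ± 1.23, 0.0723), SPRR3 (-1.65 ± 0.80, 0.126), EVPL (0.89 ± 0.40, 0.104), SLPI (-0.85 ± 0.55, 0.24), LCN2 (0.20 ± 1.12, 0.905) and SCEL (-0.98 ± 0.77, 0.344) were not called. With the block within the MRTF groups IVL passed (adjusted p = 0.0172). The median of members was -0.854, against 0.0906 over all loci.

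SPRR2D did not follow SPRR1A, SPRR1B and SPRR3, and like SPRR2A and SPRR2E it was not called in any comparison. It stood at 38.0 and 6.90 FPKM in MRTF dN WT, 69.9 and 10.5 in MRTF dN dPY, 39.1 and 9.77 in MRTF dN Y305A and 18.8 and 2.21 in MRTF dN Y305A/dPY, higher in replicate 1 each time. YAP 5SA had 1.59 and 1.00. The Hygro vector (9.26 and 218) and the Puro vector (14.4 and 0.645) spanned all of these values, and no comparison passed. PI3, which encodes elafin, was high in the Hygro vector (266 and 503), YAP 5SA (443 and 488) and the Puro vector (480.1 and 199.9) and lower in MRTF dN WT (72.6 and 200.0) and MRTF dN dPY (65.8 and 139), without a call in the fit without a block. With the block within the MRTF groups PI3 fell in MRTF dN dPY against the Puro vector (-1.69 ± 0.58, limma adjusted p = 0.0388) and the Hygro vector (-1.93 ± 0.58, 0.0351), in MRTF dN Y305A against the Puro vector (-1.73 ± 0.58, 0.0425) and in MRTF dN WT against YAP 5SA (-1.94 ± 0.58, 0.0311).

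**Figure D4:**
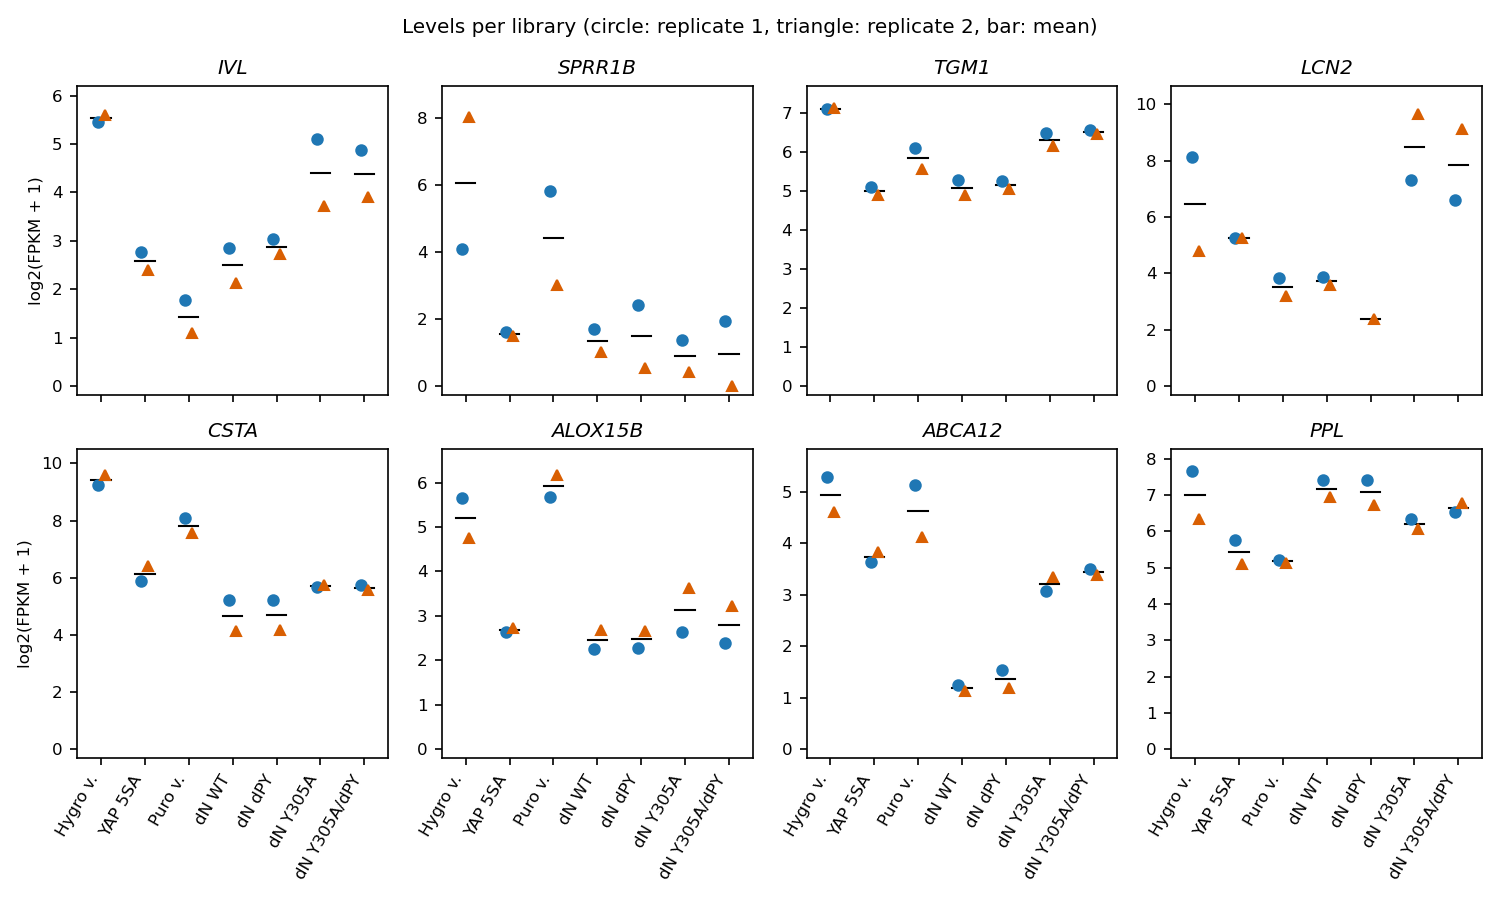
Levels of 8 members per library as log2(FPKM + 1), by group along the horizontal axis (circle, replicate 1; triangle, replicate 2; bar, mean). IVL, TGM1 and LCN2 are higher in the Y305A groups than in MRTF dN WT, CSTA and ALOX15B are low in all 4 MRTF groups and YAP 5SA, and PPL is lowest in YAP 5SA and the Puro vector.

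Deleting the PY motif, through which MRTFB binds YAP, made no detectable difference to these genes. In MRTF dN dPY against MRTF dN WT no member passed, where 0.145% of loci tested rose and 0.0913% fell (0.236% in all), and no member had an unadjusted p under 0.05. The differences ran from -1.32 in LCN2 to 0.81 in SCEL with SE of 0.265 to 1.58, so a change in the more variable members could be missed. The levels were close for TGM1 (37.2 and 32.1 FPKM in MRTF dN dPY, 0.07 ± 0.27), CSTA (36.7 and 17.1, 0.03 ± 0.43), SLPI (876 and 658, -0.09 ± 0.55), IVL (7.20 and 5.60, 0.38 ± 0.47), PPL (169 and 105, -0.10 ± 0.43) and EVPL (41.2 and 22.1, 0.16 ± 0.40). SPRR1B differed by 0.13 ± 1.23, SERPINB3 by -0.04 ± 0.29, and SPRR3 is listed at 0 in all 4 libraries. All of these had an adjusted p of 1 in limma.

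MRTF dN dPY was also set against the vectors, the same libraries that MRTF dN WT was compared with. Against the Hygro vector 14 of 27 members fell and none rose (8.26% of loci tested fell, 12.2% rose, 20.5% in all), with a median of -2.39 (-0.0424 over all loci). The 14 again include CALML5, SPRR1A, SPRR3, SERPINB3 and SERPINB13, whose fall was set or favoured by the filter. Against the Puro vector 6 fell and 2 rose (14.9% and 21%, 35.8% in all), with a median of -0.942 (0.0702 over all loci). CSTA stood 26.4-fold below the Hygro vector and 8.68-fold below the Puro vector, ABCA12 (1.90 and 1.30 FPKM) 11.9-fold and 9.59-fold, and ALOX15B (3.86 and 5.33) 6.65-fold and 10.9-fold. IVL fell against the Hygro vector (-2.66 ± 0.47, limma adjusted p = 0.00255) and rose against the Puro vector (1.45 ± 0.47, 0.0354), the same libraries giving both signs. The rise was not called without either MRTF dN dPY library or Puro vector replicate 2 (adjusted p from 0.0725 to 0.162). PPL rose against the Puro vector (1.90 ± 0.43, 0.00688), but not without MRTF dN dPY replicate 1 (1.57, 0.0634). Also lower against the Hygro vector were TGM1 (-1.95 ± 0.27, 0.000465), SLPI (-3.00 ± 0.55, 0.00296), MALL (-3.53 ± 0.55, 0.00116), SERPINB13 (-3.70 ± 0.60, 0.00138), CALML5 (0.00183) and SERPINB3 (-1.08 ± 0.29, 0.0245), the last not with any 1 library left out. SPRR1A (0.0242), SPRR1B (-4.58 ± 1.23, 0.0231), SBSN (-4.66 ± 1.39, 0.0363) and SPRR3, listed at 0 (0.038), were called too, but not without Hygro vector replicate 2. The calls of SPRR1A, SBSN and SPRR3 were also lost without either MRTF dN dPY library, and that of SPRR1B without MRTF dN dPY replicate 2. Against the Puro vector SERPINB3 (-1.30 ± 0.29, 0.00685), SERPINB13 (-2.14 ± 0.60, 0.0181) and MALL (-1.85 ± 0.55, 0.0243) fell. The filter favoured the falls of SERPINB3 and SERPINB13. Without Puro vector replicate 1 SERPINB13 was at -0.88 and MALL at -1.97, and neither was called. SERPINB13 also lost its call without either MRTF dN dPY library, and MALL on leaving out any 1 library. LCN2, on replicate 2 alone with 4.27 FPKM, was at -4.06 ± 1.37 against the Hygro vector (0.0641) and SCEL, at 11.5 and 3.18, at -2.39 ± 0.77 (0.0515). With the block within the MRTF groups LCN2 (-4.82 ± 1.31, adjusted p = 0.0266), SCEL (0.0126) and CNFN (-1.50 ± 0.49, 0.0476) passed there. PPL (0.08 ± 0.43, 0.925) and EVPL (-0.75 ± 0.40, 0.224) were not called against the Hygro vector. Nor were TGM1 (-0.67 ± 0.27, 0.0697, 0.0315 with the block), SPRR1B (-2.94 ± 1.23, 0.0844), SPRR3 (-1.65 ± 0.80, 0.128), EVPL (1.05 ± 0.40, 0.0634), SLPI (-0.95 ± 0.55, 0.196), LCN2 (-1.12 ± 1.37, 0.552) and SCEL (-0.17 ± 0.77, 0.886) against the Puro vector.

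Loss of SRF binding was compared within the MRTF forms, once with the PY motif and once without it. These 2 comparisons share no library, but they are not independent. They use 1 common estimate of the spread. The differences between replicates 1 and 2 were also correlated across loci between all pairs of MRTF groups (0.296 to 0.645). In MRTF dN Y305A against MRTF dN WT 8 of 27 members rose and none fell, where 6.1% of loci tested rose and 10.6% fell (16.6% in all). LCE3D, ALOX12B and CRCT1 are among these 8, and the filter on low values set or favoured their rise. The median was 1.04 for members and 0.0285 over all loci. In MRTF dN Y305A/dPY against MRTF dN dPY 5 rose and none fell, where 6.71% of loci tested rose and 10.6% fell (17.3% in all), with a median of 0.495 against 0.0419. LCE3D, TGM1, LCN2 and ABCA12 rose in both, which is 4 of the 8 and 4 of the 5. The difference was positive in both for 21 of the 27 members. How many of all loci were called or positive in both was not computed, so these counts have no share to be read against. MKL2 was not at the same level: it stood at 299.5 and 165 FPKM in MRTF dN WT, 286 and 171 in MRTF dN dPY, 404 and 294 in MRTF dN Y305A and 610.1 and 343 in MRTF dN Y305A/dPY, and its part in these differences was not tested. The basal markers went different ways. Their sum was 4541 to 14280 FPKM in the 4 libraries without SRF binding and 20990 to 48460 in the 4 with it, a gap that lay in KRT17 (735 to 6700.1 FPKM against 17584 to 43206). KRT5 (1971 to 4364 against 748 to 1085) and ITGB4 (363 to 705 against 69.6 to 90.7) were higher without SRF binding. The luminal sum was 205.1 to 29390 FPKM without SRF binding, where KRT8 and KRT18 are listed at 0 in both replicate 1 libraries, and 5818 to 9681 with it. The part of these markers was not tested either.

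Among envelope proteins IVL stood at 33.2 and 12.1 FPKM in MRTF dN Y305A and at 28.2 and 13.9 in MRTF dN Y305A/dPY, above every library of the SRF-binding forms. It rose 3.75-fold with the PY motif (1.91 ± 0.47, limma adjusted p = 0.0181). Without MRTF dN Y305A replicate 1 the difference was 1.22 (adjusted p = 0.144), and without MRTF dN WT replicate 2 it was 1.55 (0.148). Without the PY motif the difference was 1.50 ± 0.47 (adjusted p = 0.0511), and 0.00621 with the block within the MRTF groups. LCE3D, a late cornified envelope protein, stood at 9.31 and 9.81 FPKM in MRTF dN Y305A, 0.611 and 1.77 in MRTF dN Y305A/dPY and at most 0.451 in every other library. It rose in both comparisons (3.18 ± 0.27, 1.75e-05, and 1.08 ± 0.27, 0.0201). The second call was lost without MRTF dN Y305A/dPY replicate 2 (0.69, adjusted p = 0.171) or either MRTF dN dPY library. It passed the filter on low values through the Y305A libraries, and reads shared with other LCE3 copies cannot be told apart. CNFN rose with the PY motif to 6.87 and 8.04 FPKM (2.00 ± 0.55, 0.0286), a call lost on leaving out any of the 4 libraries. CRCT1, a cysteine-rich protein of the same chromosome 1 cluster, stood at 9.21 and 1.60 in MRTF dN Y305A and 1.87 and 1.98 in MRTF dN Y305A/dPY and is listed at 0 in all 4 SRF-binding libraries (adjusted p = 0.0203 with the PY motif; 1 of 4 left-out libraries kept the call). SPRR1B (-0.45 ± 1.23, 0.876, and -0.52 ± 1.23, 0.848) and SPRR3 (0.00 ± 0.80, 1, and 0.11 ± 0.80, 0.958) did not differ detectably, and stayed at or below 2.83 and 0.172 FPKM in the Y305A forms.

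TGM1 rose to 88.2 and 69.6 FPKM in MRTF dN Y305A (1.23 ± 0.27, adjusted p = 0.0088) and to 93.3 and 86.4 in MRTF dN Y305A/dPY (1.35 ± 0.27, 0.00509). The first call was lost without MRTF dN WT replicate 2 or MRTF dN Y305A replicate 1 (highest adjusted p 0.0831), and the second held without any 1 library. SLPI stood at 3577 and 1637 FPKM and at 4403 and 2373. It missed the threshold with the PY motif (1.58 ± 0.55, 0.0769; 0.0301 with the block) and rose 4.25-fold without it (2.09 ± 0.55, 0.0232). That rise was called without MRTF dN Y305A/dPY replicate 2 but not without any of the other 3 libraries (adjusted p from 0.0713 to 0.164). LCN2, lipocalin 2, an iron-sequestering antimicrobial protein, showed the widest difference of all members. It stood at 159 and 806 FPKM in MRTF dN Y305A and 96.1 and 549.6 in MRTF dN Y305A/dPY, against 13.5 and 10.9 in MRTF dN WT and 4.27 in the single MRTF dN dPY value. It rose 27.4-fold with the PY motif (4.77 ± 1.12, 0.016) and 43.8-fold without it (5.45 ± 1.37, 0.0219). Without MRTF dN Y305A replicate 2 the first was 3.61 (adjusted p = 0.122), without MRTF dN WT replicate 1 it was 4.92 (0.0751), and without MRTF dN WT replicate 2 it was 4.63 (0.0932). Without MRTF dN Y305A/dPY replicate 2 the second was 4.20 (0.103). CD14, a leukocyte marker singled out after its values were seen, stood between 30.6 and 149 FPKM in the Y305A forms and between 1.31 and 4.01 in the SRF-binding forms. It was also at 27.9 and 139 FPKM in the Puro vector, 32.2 and 9.17 in the Hygro vector and 1.57 and 1.61 in YAP 5SA. The 7 leukocyte markers summed to 666.2 to 807.3 FPKM in the Y305A forms and to 334 to 448.7 in the SRF-binding forms. Most of it came from the locus that CD68 shares with other genes, and in the Y305A forms much of the rest from CD14. In each group 2 of 7 and 3 of 7 were at 1 FPKM or more, and PTPRC and CD3E were at or near 0.

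ABCA12 rose in both comparisons by 2.02 ± 0.34 (adjusted p = 0.00186) and 2.08 ± 0.34 (0.00161), to 7.44 and 9.23 FPKM and to 10.4 and 9.46, and both calls held without any 1 library. ALOX12B, the lipoxygenase of the skin barrier, stood at 5.35 and 3.10 FPKM in MRTF dN Y305A and 1.85 and 1.18 in MRTF dN Y305A/dPY, and was called higher with the PY motif (1.85 ± 0.26, 0.000693). Like LCE3D it passed the filter only through the Y305A forms, so this direction was set by the filter. SCEL was not called (33.3 and 11.7 FPKM, 2.33 ± 0.77, 0.0652, and 39.1 and 16.9 FPKM, 1.88 ± 0.77, 0.131), but passed in both with the block (adjusted p = 0.016 and 0.0397). CSTA (50.7 and 52.9 FPKM, 1.04 ± 0.43, 0.135, and 52.2 and 46.4, 0.94 ± 0.43, 0.175), SERPINB3 (0.58 ± 0.29, 0.228, and 0.42 ± 0.29, 0.396), EVPL (31.1 and 31.3 FPKM, 0.20 ± 0.40, 0.818, and 31.6 and 45.3, 0.32 ± 0.40, 0.685) and PPL (79.4 and 66.1 FPKM, -0.98 ± 0.43, 0.164, and 90.8 and 109, -0.42 ± 0.43, 0.593) were not called. PPL had the lowest difference of all members with the PY motif.

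**Figure D5:**
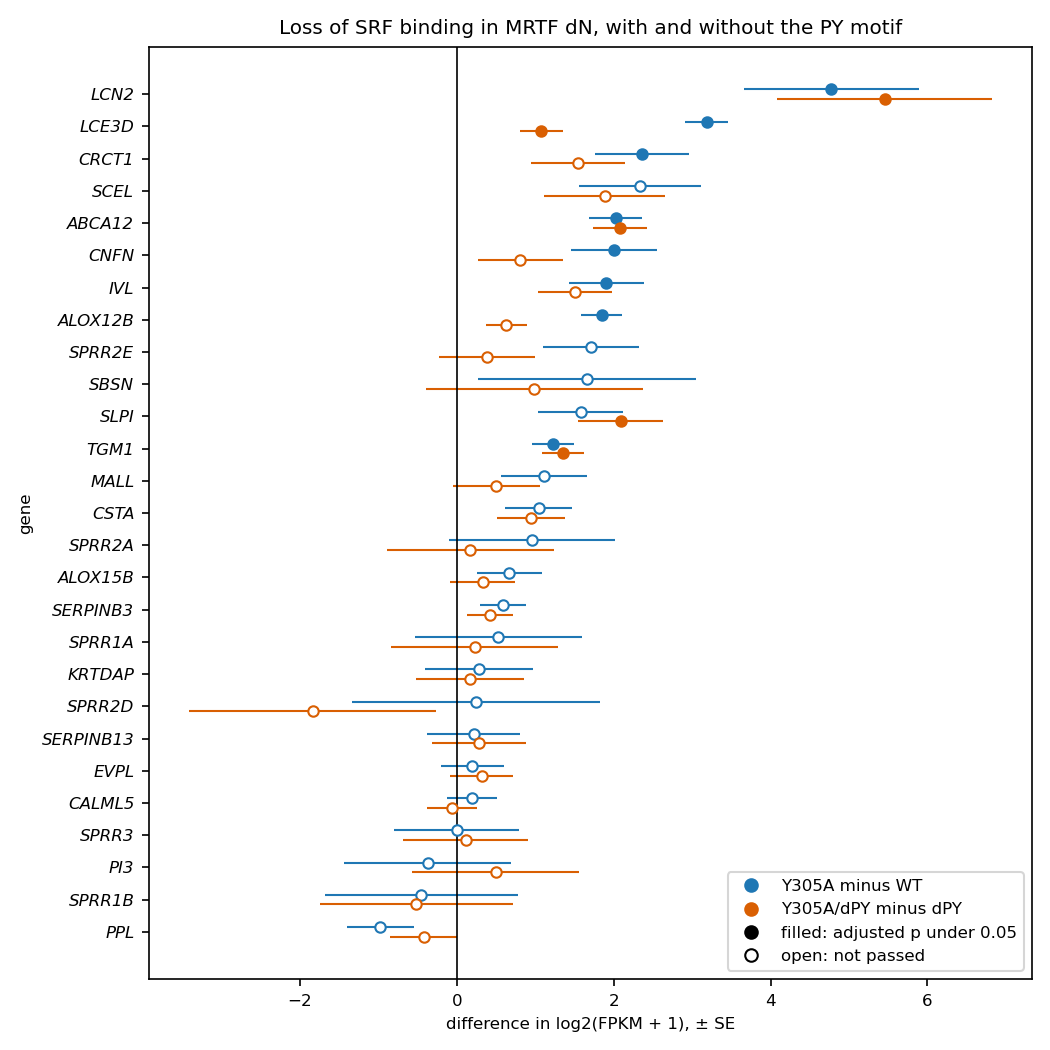
Difference in log2(FPKM + 1) with its SE between MRTF forms without and with SRF binding, with the PY motif (MRTF dN Y305A minus MRTF dN WT) and without it (MRTF dN Y305A/dPY minus MRTF dN dPY), filled where the adjusted p is under 0.05. LCN2 lies farthest to the right at 4.77 and 5.45, and 21 of 27 members are positive in both (share over all loci not computed).

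Between the Y305A forms 1 member was called: LCE3D was lower in MRTF dN Y305A/dPY than in MRTF dN Y305A (-2.32 ± 0.27, limma adjusted p = 0.0283), 1 of only 2 loci called, both lower (0.0152% of those tested). The call was lost without MRTF dN Y305A replicate 1 (-2.36, adjusted p = 0.197), MRTF dN Y305A replicate 2 (-2.29, 0.144) or MRTF dN Y305A/dPY replicate 1 (-1.93, 0.153). IVL (-0.02 ± 0.47), SPRR1B (0.06 ± 1.23), SPRR3 (0.11 ± 0.80), TGM1 (0.19 ± 0.27), PPL (0.45 ± 0.43), EVPL (0.27 ± 0.40), SLPI (0.42 ± 0.55), LCN2 (-0.64 ± 1.12), SERPINB3 (-0.20 ± 0.29), CSTA (-0.07 ± 0.43) and SCEL (0.36 ± 0.77) all had an adjusted p of 1. Whether the PY deletion acts differently with and without SRF binding was tested as an interaction. No member passed, where 0.0152% of loci tested were called higher and 0.00761% lower (0.0228% in all). LCE3D (-2.11 ± 0.39, adjusted p = 0.221) and ALOX12B (-1.22 ± 0.37, adjusted p = 1) had an unadjusted p under 0.05. The interaction was -0.41 ± 0.67 for IVL, -0.06 ± 1.74 for SPRR1B, 0.11 ± 1.13 for SPRR3, 0.12 ± 0.38 for TGM1, 0.55 ± 0.61 for PPL, 0.12 ± 0.57 for EVPL, 0.51 ± 0.77 for SLPI, 0.68 ± 1.77 for LCN2, -0.10 ± 0.61 for CSTA, -0.16 ± 0.41 for SERPINB3 and -0.45 ± 1.10 for SCEL, all with an adjusted p of 1.

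The Y305A forms were also set against each vector. Against the Puro vector 5 members rose and 4 fell in MRTF dN Y305A (14.2% of loci tested rose and 11% fell, 25.1% in all), and 5 rose and 5 fell in MRTF dN Y305A/dPY (15% and 11.4%, 26.4% in all). The medians were 0.483 and -0.255, against 0.0997 and 0.0833 over all loci. IVL rose 7.83-fold and 7.72-fold (limma adjusted p = 0.00449 and 0.00383), LCN2 31.5-fold and 20.2-fold (0.0145 and 0.0217) and LCE3D by 3.30 ± 0.27 and 0.98 ± 0.27 (0.000202 and 0.0268). CRCT1 (2.17 ± 0.60, 0.0261) and ALOX12B (1.43 ± 0.26, 0.00706) rose in MRTF dN Y305A, and PPL (1.48 ± 0.43, 0.03) and EVPL (1.36 ± 0.40, 0.0316) in MRTF dN Y305A/dPY. The filter set or favoured the rises of LCE3D, CRCT1 and ALOX12B in MRTF dN Y305A. It also favoured the falls, given next, of SERPINB13 in both forms and of SERPINB3 in MRTF dN Y305A/dPY. CSTA fell by 2.10 ± 0.43 and 2.17 ± 0.43 on the log2 scale (0.00957 and 0.00755), ALOX15B by 2.79 ± 0.41 and 3.12 ± 0.41 (0.00354 and 0.00211), ABCA12 by 1.41 ± 0.34 and 1.18 ± 0.34 (0.016 and 0.0287) and SERPINB13 by 2.09 ± 0.60 and 1.85 ± 0.60 (0.0288 and 0.0427). SERPINB3 fell in MRTF dN Y305A/dPY (-0.88 ± 0.29, 0.0489). Without Puro vector replicate 1 there remained 3 higher and 1 lower in MRTF dN Y305A and 1 higher and 2 lower in MRTF dN Y305A/dPY. IVL and ALOX15B were called in both. Without MRTF dN Y305A replicate 1 LCE3D was the single call of that form, with IVL at 2.28 (0.0564). PPL, EVPL and LCN2 in MRTF dN Y305A/dPY were not called with any 1 of the 4 libraries left out. SPRR1B (-3.52 ± 1.23, 0.0574, and -3.46 ± 1.23, 0.0592) passed with the block within the MRTF groups (0.0394 and 0.0414), as did TGM1 (0.68 ± 0.27, 0.0811, and 0.0374 with the block), SCEL (1.72 ± 0.77, 0.121, and 0.0391) and MALL (-1.35, 0.0178 with the block) in MRTF dN Y305A/dPY. The other values were not called: SPRR3 (-1.65 ± 0.80, 0.144, and -1.54 ± 0.80, 0.172) and SLPI (0.72 ± 0.55, 0.34, and 1.14 ± 0.55, 0.142) in both forms, and TGM1 (0.48 ± 0.27, 0.193), PPL (1.03 ± 0.43, 0.0977), EVPL (1.09 ± 0.40, 0.0674), SERPINB3 (-0.68 ± 0.29, 0.108) and SCEL (1.36 ± 0.77, 0.209) in MRTF dN Y305A.

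Against the Hygro vector 2 members rose and 6 fell in MRTF dN Y305A (1.32% and 1.28% of loci tested), and none rose and 6 fell in MRTF dN Y305A/dPY (1.29% and 1.38%). The shares of members called were 29.6% and 22.2%, against 2.6% and 2.67% of all loci. CSTA was 13.1-fold and 13.7-fold lower (limma adjusted p = 0.00267 and 0.00276), SERPINB13 12.7-fold and 10.7-fold (0.0103 and 0.0168), ALOX15B 4.21-fold and 5.28-fold (0.0263 and 0.0165), ABCA12 3.30-fold and 2.81-fold (0.0244 and 0.0462) and MALL 5.23-fold and 8.16-fold (0.0491 and 0.02), and CALML5 was called as well (0.0161 and 0.0134). LCE3D (2.97 ± 0.27, 0.000692) and ALOX12B (1.67 ± 0.26, 0.00922) rose in MRTF dN Y305A. The directions of LCE3D, ALOX12B and CALML5 were set by the filter here, and the falls of SERPINB13 were favoured by it. MALL in MRTF dN Y305A, and ABCA12 and SERPINB13 in MRTF dN Y305A/dPY, lost their calls on leaving out any of the 4 libraries. CSTA in both forms and LCE3D were called without any 1 library. Leaving out Hygro vector replicate 1 or MRTF dN Y305A replicate 1 ended the calls of ABCA12, ALOX12B, ALOX15B and SERPINB13 in MRTF dN Y305A. Those of ABCA12 and SERPINB13 were also lost without MRTF dN Y305A replicate 2. In MRTF dN Y305A/dPY the call of ALOX15B was lost without Hygro vector replicate 1 or MRTF dN Y305A/dPY replicate 1, and that of MALL without replicate 2 of either. The CALML5 calls were lost without either library of the Y305A form. IVL (-1.13 ± 0.47, 0.313, and -1.15 ± 0.47, 0.268), TGM1 (-0.79 ± 0.27, 0.179, and -0.59 ± 0.27, 0.32) and SLPI (-1.33 ± 0.55, 0.302, and -0.91 ± 0.55, 0.48) lay below the Hygro vector without a call, and SPRR1B at -5.16 ± 1.23 and -5.10 ± 1.23 missed the threshold (0.0556 and 0.0569). With the block within the MRTF groups SPRR1B passed in both (0.0383 and 0.039). SPRR3 (-2.65 ± 0.80, 0.126, and -2.54 ± 0.80, 0.138), PPL (-0.79 ± 0.43, 0.481, and -0.34 ± 0.43, 0.78), EVPL (-0.70 ± 0.40, 0.508, and -0.43 ± 0.40, 0.681), LCN2 (2.03 ± 1.12, 0.494, and 1.39 ± 1.12, 0.624), SERPINB3 (-0.46 ± 0.29, 0.58, and -0.65 ± 0.29, 0.322) and SCEL (-0.87 ± 0.77, 0.72, and -0.50 ± 0.77, 0.829) were not called.

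MRTF dN WT and YAP 5SA were compared directly. Of the 27 members 5 were lower in MRTF dN WT and 1 higher, where 7.83% of loci tested were lower and 14.3% higher (22.1% in all). ABCA12 at 1.38 and 1.20 FPKM against 11.5 and 13.2 in YAP 5SA (-2.54 ± 0.34, limma adjusted p = 0.000438) and SCEL at 4.82 and 1.93 against 50.5 and 76.4 (-3.93 ± 0.77, 0.00491) were called without any 1 library. SBSN (0.707 and 0.180 FPKM against 37.7 and 24.7, -4.47 ± 1.39, 0.0412) and SERPINB13 (0.403 and 0.188 against 4.42 and 4.96, -2.14 ± 0.60, 0.0263) lost their calls on leaving out any of the 4 libraries, with SBSN then between -4.77 and -4.18. SERPINB13 passed the filter only through the vectors and YAP 5SA, which favoured its lower value in MRTF dN WT. CSTA was lower (-1.46 ± 0.43, 0.0327) and PPL higher (1.75 ± 0.43, 0.0151). CSTA was no longer called without MRTF dN WT replicate 2 or either YAP 5SA library, and PPL without MRTF dN WT replicate 1 or YAP 5SA replicate 2. IVL (-0.10 ± 0.47, 0.912), TGM1 (0.08 ± 0.27, 0.861), SLPI (-0.26 ± 0.55, 0.774), SPRR1B (-0.20 ± 1.23, 0.931), SPRR3 (-0.11 ± 0.80, 0.94), EVPL (0.55 ± 0.40, 0.354), LCN2 (-1.54 ± 1.12, 0.357) and SERPINB3 (-0.79 ± 0.29, 0.0781) did not differ detectably.

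Other genes of the programme were taken from 3 lists. Of 19 measured among 34 other cornification genes, 11 fell and none rose in YAP 5SA against the Hygro vector, and 10 fell and none rose in MRTF dN WT against it (4.3% and 7.09% of all loci fell). With the Puro vector as control 5 fell and none rose in YAP 5SA, and 7 fell and 1 rose in MRTF dN WT (4.22% and 15% of all loci fell). The alarmins S100A8 and S100A9 had the steepest falls in YAP 5SA, with S100A9 at 12.2 and 17.8 FPKM against 753 and 1021 (-5.80, limma adjusted p = 4.71e-05) and S100A8 at 0.873 and 1.40 against 189 and 308 (-6.84, 0.00723). S100A9 was the called gene of this list with the widest rise on loss of SRF binding, from 9.48 and 8.65 FPKM in MRTF dN WT to 381 and 841 in MRTF dN Y305A (5.82, 3.21e-06) and from 11.3 and 7.76 in MRTF dN dPY to 628 and 841 (6.13, 2.22e-06). In the Puro vector S100A9 stood at 1050.5 and 972 FPKM, so its level there overlapped that of the Hygro vector, where that of IVL did not. In all 6 of 19 rose and none fell with the PY motif, and 5 rose and none fell without it. Of all loci 6.1% and 6.71% rose. Among the called list genes were LYPD3 (1.79 and 1.52), SULT2B1 (2.21 and 2.38) and ANXA1 (1.79 and 1.93). ALOXE3 counts in this list with the value of ALOX12B, whose locus it shares, and ANXA1 lies in the empty stretch of MRTF dN dPY replicate 1.

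Of 29 regulators of squamous differentiation 28 were measured. On loss of SRF binding 5 rose and 5 fell in each comparison. Of all loci 6.1% rose with the PY motif and 6.71% without it, and 10.6% fell in each. The epithelial ETS factors ELF3 (3.05, limma adjusted p = 0.000273, and 4.30, 2.23e-05) and EHF (2.23, 0.000702, and 2.41, 0.000416) rose, and the Notch ligand JAG1 (-3.47, 2.76e-05, and -2.70, 0.000172) fell. ELF3 stood at 15.2 and 12.4 FPKM in MRTF dN WT, 176 and 82.3 in MRTF dN Y305A, 249.6 and 209 in the Hygro vector and 29.1 and 29.3 in the Puro vector. JAG1 stood at 94.8 and 79.2 in MRTF dN WT and 6.04 and 7.84 in MRTF dN Y305A. In YAP 5SA against the Hygro vector 9 regulators fell and none rose (4.3% and 3.91% of all loci), and against the Puro vector 4 fell and 1 rose (4.22% and 5.56%). Against the Hygro vector the widest falls were in NOTCH3 (-3.78, 0.0004), ELF3 (-3.38, 0.000883), HES1 (-2.75, 0.00033) and OVOL1 (-2.70, 0.00446).

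The last list was of suprabasal keratins. Of 11 on the list 9 were measured, and KRT6A, KRT6B and KRT6C are 1 locus, so that their calls count 3 times. Against the Puro vector 6 rose and none fell in MRTF dN WT, where 21.8% of all loci rose and 15% fell. KRT80 went from 0.451 and 1.44 FPKM to 234 and 139.7 (6.60, limma adjusted p = 1.33e-06). KRT13 went from 84.3 and 7.21 to 1527 and 728 (5.32, 0.00571) and the KRT6 locus from 256 and 243 to 6555 and 4615 (4.45, 0.000318). In the Puro vector itself 7 of the 9 were lower than in the Hygro vector (8.52% of all loci). The Hygro vector had KRT13 at 306 and 234 FPKM and the KRT6 locus at 2204 and 4300. Against the Hygro vector 1 rose (KRT80, 4.40, 2.53e-05) and 2 fell (KRT10, -4.46, 0.000257, and KRT78, -2.30, 0.000158). Of all loci 12% rose and 7.09% fell there. On loss of SRF binding none of the 9 was called in either direction (16.6% and 17.3% of all loci), with medians of -0.968 and -1.15. KRT16 is read from a locus shared with KRT14.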

How the data were processed

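RNA of 14 MCF-10A libraries, harvested on day 2 after infection, was sequenced from a stranded, poly(A)-selected library preparation, per the labels' protocols. The deposited table holds FPKM. Per the submitters' processing notes the authors used Bowtie and TopHat, then Cufflinks and its tool Cuffnorm, with build hg19. Versions, the annotation and the scaling are not given in the sources used here. FPKM hold no counts, so depth is unknown. Scaling by length lets short loci reach high values from few reads.

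From these values log2(FPKM + 1) was computed. Where a name has several loci, the locus of highest mean was used. The 13137 of 27543 named loci that reached 1 FPKM in 2 or more libraries were tested with limma 3.58.1 in R 4.3.3 (linear model on group, empirical Bayes with intensity trend, two-sided), with all 14 libraries fitted together. Residual degrees of freedom were 7 (6 where a value is missing), and the prior's median was 3.76. P-values were adjusted by Benjamini and Hochberg over all 13137 loci within each comparison, with a threshold of 0.05. Errors are SE, n = 2 libraries a group (1 for LCN2 in MRTF dN dPY), and folds are on FPKM + 1. Zeros of MRTF dN dPY replicate 1 after PPIA on chromosome 7 and on chromosomes 8, 9 and X were treated as missing, other zeros as values. Since KRT8 and KRT18 are listed at 0 in replicate 1 of both Y305A groups, a 0 may be a failed estimate. The fit was tested on simulated data. Tables and figures were made with Python 3.11.15, numpy 2.4.6, pandas 2.3.3 and matplotlib 3.10.9.

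The members and lists were chosen with earlier results of these data known. All members could be named. Statistics are given in each comparison for called members and for IVL, SPRR1B, SPRR3, TGM1, PPL, EVPL, SLPI, LCN2, SERPINB3, CSTA and SCEL. Of each pathway list the called genes with the 4 largest changes in each direction could be named, and some items are not reported here.

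Results were recomputed with no filter, with a pseudocount of 0.1, with median-of-ratios scaling, without the intensity trend, with a fit of the compared groups only, with a replicate block, with the empty stretch kept as zeros, with each library left out in turn (the lone library is then assumed to vary like the other groups) and, chosen after the data were seen, with a replicate block within the MRTF groups. For that block the deviations of same-numbered libraries from their group means were correlated across loci: all 6 pairs of MRTF groups were above 0.1 (0.296 to 0.645), but only 7 of all 21 pairs of groups. The numbers come from the sample titles, which do not say what they mark. Promoter letters were read from RefSeq sequences on GRCh38.p14.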

Additional observations from a re-analysis of the deposited data

How the results depend on the processing

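The labels give the groups the same replicate numbers. With the number as a block within the MRTF groups, 26 calls of members were gained over the comparisons and 0 of 119 were lost, and MRTF dN Y305A against the Puro vector turned from 5 higher and 4 lower to 5 higher and 6 lower (11 called). A block over all groups kept 118 of the 119 calls. No call of a member changed sign under any of the alternatives.

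With only the compared groups fitted, 47 of the 119 calls were kept. The members called were then 3 in YAP 5SA against the Hygro vector and 1 against the Puro vector, 5 in MRTF dN WT and 5 in MRTF dN dPY against the Puro vector, 9 in MRTF dN dPY against the Hygro vector, 0 for each Y305A form against each vector and for the Puro against the Hygro vector, 3 in MRTF dN Y305A/dPY against MRTF dN dPY, 0 between the Y305A forms and 13 in MRTF dN WT against YAP 5SA. These fits have fewer libraries. Without the filter, which tests more loci, the counts were 1 in YAP 5SA against the Puro vector, 5 and 3 in MRTF dN Y305A and MRTF dN Y305A/dPY against the Hygro vector, 6 in MRTF dN Y305A/dPY against the Puro vector, 5 and 3 on loss of SRF binding with and without the PY motif, 0 between the Y305A forms and 3 in MRTF dN WT against YAP 5SA. With the zeros of MRTF dN dPY replicate 1 kept there was 1 call in YAP 5SA against the Puro vector and 0 between the Y305A forms, where a pseudocount of 0.1 also gave 0. The cause was not tested.

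With each library left out in turn, 44 of the 119 calls held throughout and 19 in no case. The counts ran from 3 to 10 (YAP 5SA against Hygro vector), 1 to 6 (YAP 5SA against Puro vector), 9 to 16 (MRTF dN WT against Hygro vector), 4 to 10 (MRTF dN WT against Puro vector), 9 to 16 and 5 to 10 (MRTF dN dPY against Hygro and Puro vector), 2 to 6 and 1 to 11 (MRTF dN Y305A), 2 to 6 and 3 to 9 (MRTF dN Y305A/dPY), 2 to 6 (Puro against Hygro vector), 3 to 6 and 2 to 4 (loss of SRF binding with and without the PY motif), 0 to 1 (between the Y305A forms) and 2 to 3 (MRTF dN WT against YAP 5SA). Without Puro vector replicate 2, MRTF dN Y305A against that vector gave 4 higher and 7 lower (11). With 2 libraries a group and no counts, low FPKM cannot be told from counting noise.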
